A study of Oreochromis mossambicus with 6 samples.

Results

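The genes described here encode the machinery that builds ribosomes in the nucleolus. They were chosen by symbol from the table of gene counts: subunits of RNA polymerase I, proteins of the small nucleolar ribonucleoproteins (snoRNPs), factors that process the small and large ribosomal subunits, and the nucleolar chaperones. All 55 genes whose symbols matched had at least 10 counts summed over the 6 libraries, so none was lost to that minimum, and they are 55 of 24878 genes tested. The least abundant was nol4la with 277 counts in all, and 54 of the 55 were above 1 CPM (a gene's counts scaled to the size of its library) in every library. They were sorted into 11 roles, of which the last holds nol4la and nol4lb, whose symbols matched but which are not known as ribosome assembly factors.

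Gill filaments were taken from male, wild-type Mozambique tilapia (Oreochromis mossambicus), a euryhaline fish, after surgical removal of the pituitary (hypophysectomy). One group of 3 fish had received ovine prolactin (oPrl) at 5 µg per g body weight, and the other group of 3 fish had received saline vehicle. After 5 days of recovery from surgery in water of 12 ppt, each fish was given 3 injections 48 h apart, and it was sampled 24 h after the last one. The paper states that no food was given in the recovery and post-injection periods. All 6 fish lacked the other pituitary hormones as well as their own prolactin, and the hormone replaced was that of a mammal. Each library came from 1 fish, so differences between fish and between sample preparations cannot be told apart in the spread within a treatment.

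Ribosome biogenesis starts when RNA polymerase I transcribes the precursor of ribosomal RNA (rRNA). On that transcript the snoRNPs guide chemical modification of bases and sugars, a large assembly called the small-subunit processome folds and cleaves the part that becomes the small subunit, and other factors process the part that becomes the large subunit. These genes are known to be co-expressed with cell growth in yeast and in animals, and the gill epithelium, where ionocytes take up or secrete salt, is a tissue with continuous cell renewal.

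The libraries held 30516271, 32959492 and 32337824 counts in oPrl fish, and 26263548, 35976655 and 21643589 counts in vehicle fish. CPM values were scaled by the trimmed mean of M values (TMM), which sets a typical gene level between libraries. The labelled tissue was checked against fixed markers: 8 ionocyte and 4 epithelial genes were detected, with summed levels of 3419 to 4006 CPM in oPrl fish and 4587 to 6473 CPM in vehicle fish for ionocytes, and of 6154 to 9303 CPM in oPrl fish and 11184 to 12160 CPM in vehicle fish for epithelium. Leukocyte markers (7 genes) summed to 1536 to 1742 CPM in oPrl fish and 1589 to 1983 CPM in vehicle fish, red blood cell markers (5 genes) to 370 to 879 CPM in oPrl fish and 350.0 to 671 CPM in vehicle fish, and skeletal muscle markers (5 genes) to 34.4 to 56.3 CPM in oPrl fish and 21.5 to 104.9 CPM in vehicle fish. One of the ionocyte markers, atp1a1b, fell at an adjusted p of 0.05 by edgeR. The part of cell composition in the results below was not tested, and in such bulk tissue fewer cells of a type cannot be told apart from less RNA per cell.

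The question was whether prolactin replacement altered transcripts of this machinery. A single member, ddx21, fell: it was 2.44-fold lower with oPrl, in every oPrl library, at an adjusted p of 0.0123 (edgeR's quasi-likelihood test, Benjamini-Hochberg adjustment over all genes tested). No other member passed an adjusted p of 0.05, a threshold that 6.11% of all genes passed. At an adjusted p under 0.01 with an absolute log2 fold change over 1, edgeR called 0 of 55 members, against 1.4% of all genes (0.687% lower with oPrl). At an unadjusted p under 0.05 edgeR gave 11 members higher with oPrl (20%, beside 11.6% of all genes) and 3 lower (5.45%, beside 10.1%). DESeq2 called 1 member at the stricter rule (ddx21, 1.82%), where it called 6.01% of all genes. At an adjusted p under 0.05 it called 4 members (7.27%), beside 13.3% of all genes. Those 4 were nol6 and npm1a, higher with oPrl beside 6.65% of all genes, and ddx21 and nop16, lower beside 6.68%.

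In direction, 48 of the 55 log2 fold changes were above 0 (51.5% of all genes were), with a median of 0.55 against 0.02 over all genes and a range from -1.28 to 1.27. Most of this shift lay in 1 library. The median log2 deviation of the members from their vehicle mean was 0.26, 1.18 and 0.005 in oPrl replicates 1, 2 and 3, and -0.04, -0.20 and 0.26 in vehicle replicates 1, 2 and 3. oPrl replicate 2 thus stood 2.27-fold above the vehicle mean for a typical member, while oPrl replicate 3 stood at 1.003-fold and vehicle replicate 3 at 1.19-fold. Without oPrl replicate 2 the median log2 fold change of the members was 0.11 (0.01 over all genes), 33 members were higher and 22 lower, and 15 had changed sign. The medians over each role below are therefore given with and without that library.

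**Figure D1:**
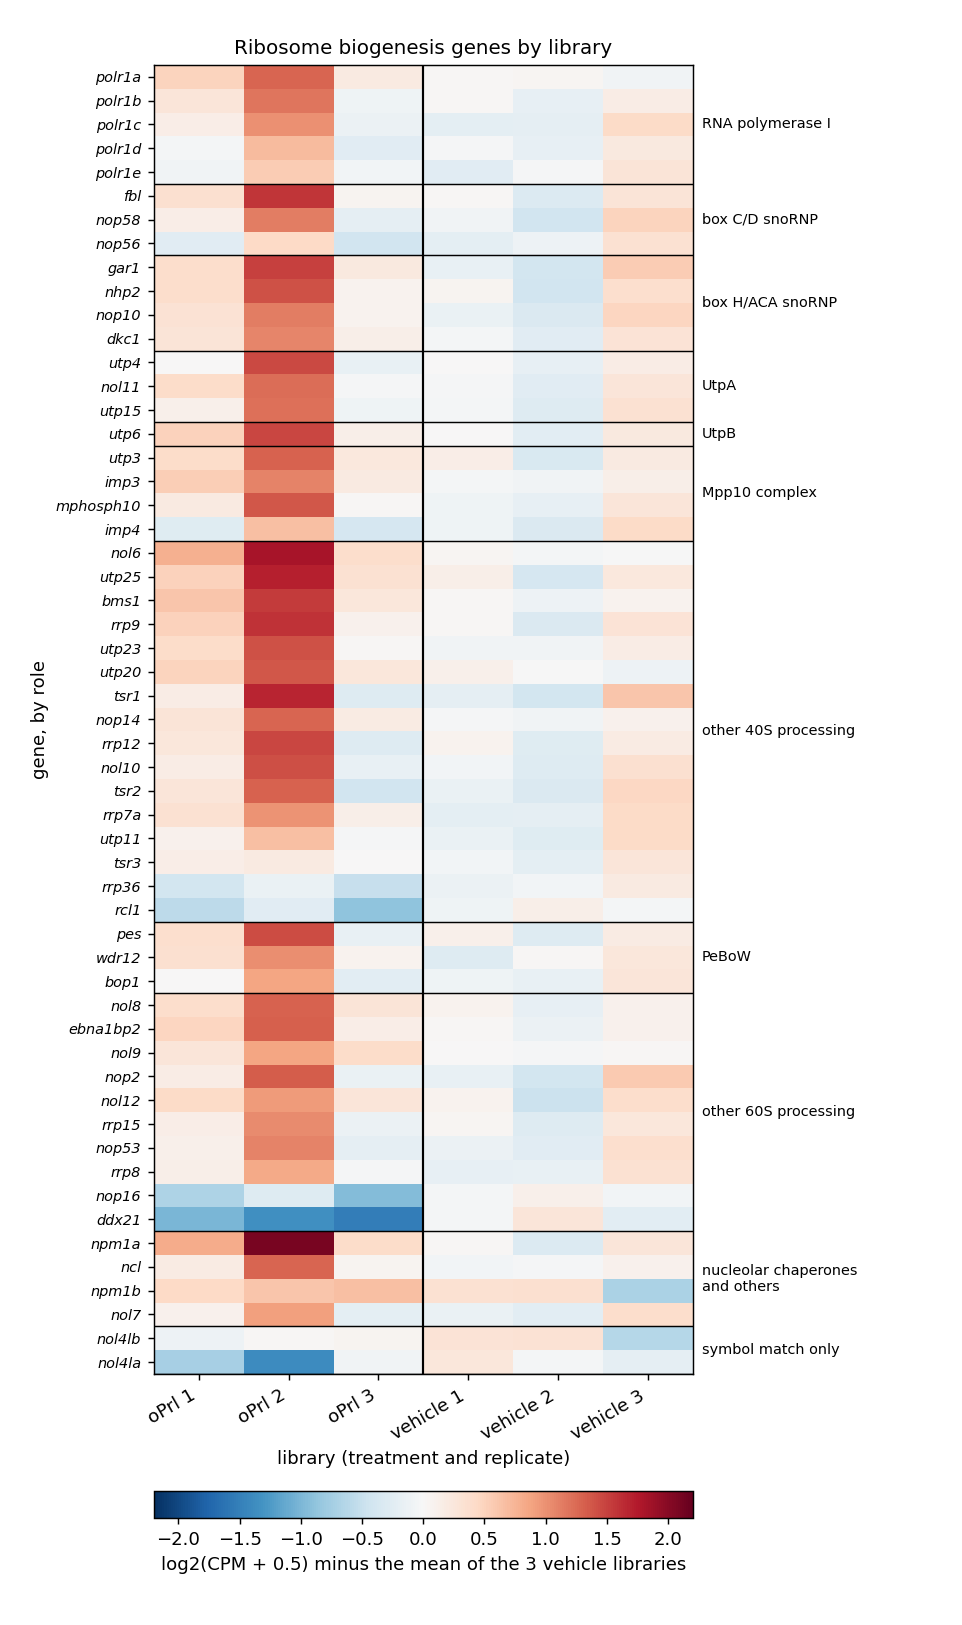
Each row is 1 of the 55 ribosome biogenesis genes, grouped by role, and each column 1 library, with the 3 oPrl libraries left of the 3 vehicle libraries; colour gives log2(CPM + 0.5) minus the mean of the vehicle libraries. The column of oPrl replicate 2 is raised across nearly every role, with a median of 1.18, while the row of ddx21 is lowered in all 3 oPrl columns.

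The members moved together from library to library, also among libraries of the same treatment. oPrl replicate 2 was the highest of the 6 libraries for 47 of 55 members (25.3% of all genes), and was over 1.5 times both other oPrl libraries for 43 members (12.1% of all genes). The oPrl libraries stood in the order 2, 1, 3 from high to low for 49 members (19.7% of all genes). In the vehicle fish the order was 3, 1, 2 for 38 members (22.1% of all genes), with replicate 3 the highest vehicle library for 46 members (39% of all genes) and replicate 2 the lowest for 39 (31.2% of all genes). Total counts ran the other way, with 21643589 in vehicle replicate 3, 26263548 in replicate 1 and 35976655 in replicate 2. The part of depth in this order was not tested. The 8 members for which oPrl replicate 2 was not the highest were ddx21, nop16, rcl1, rrp36, tsr3, npm1b, nol4la and nol4lb.

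The spread that this left within a treatment sets the precision of each fold change. The median SD of log2(CPM + 0.5) was 0.60 for members in oPrl fish, against 0.22 for all genes in the same libraries. In vehicle fish it was 0.27 for members and 0.25 for all genes. The 95% interval of a member's log2 fold change was 1.53 wide at the median and 1.09 wide without oPrl replicate 2, and for 42 of the 55 members it reached above 1, so a doubling was within the interval for most of them. A p above the threshold therefore does not show that these genes were level between treatments.

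**Figure D2:**
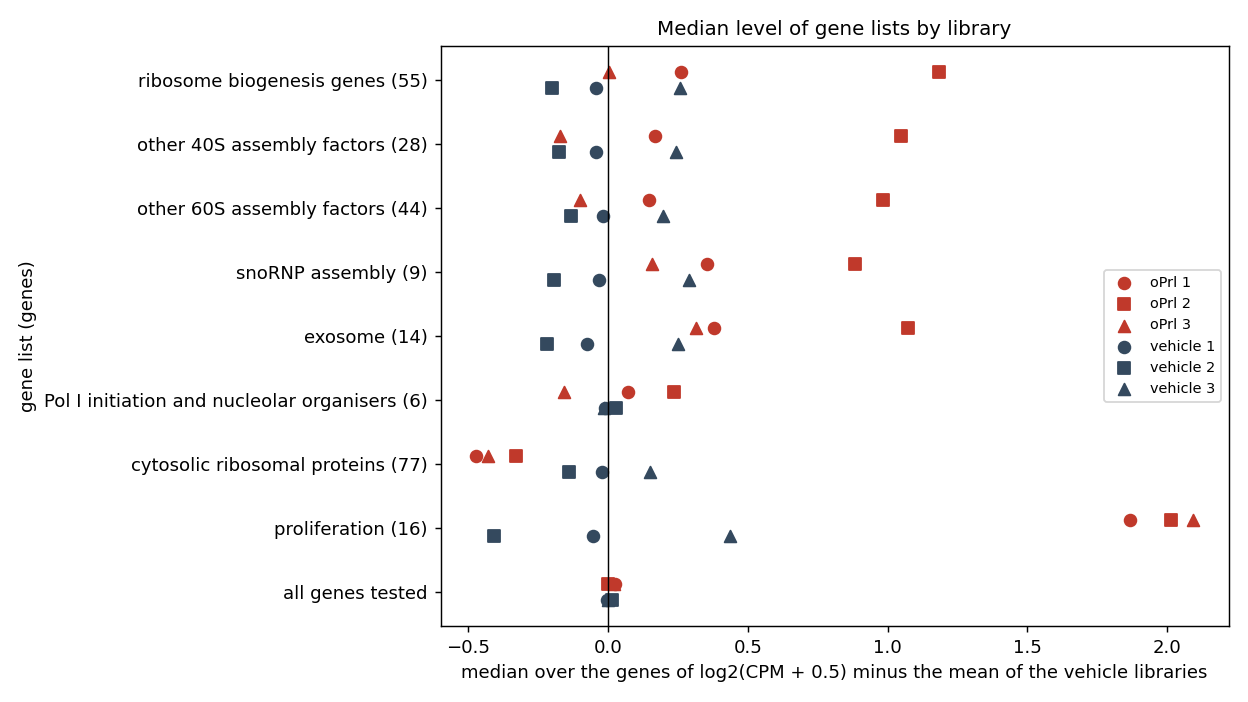
Horizontal position gives the median log2 deviation from the vehicle mean in each library, with 1 row for the ribosome biogenesis genes and 1 for each other gene list. Within a row the oPrl points are drawn above the vehicle points. The ribosome biogenesis genes peak in oPrl replicate 2 (1.18, against 0.26 and 0.005 in the other oPrl fish), whereas the proliferation genes lie between 1.87 and 2.09 in all 3 oPrl fish.

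RNA polymerase I makes the rRNA precursor, and 5 of its subunit genes were measured. All 5 log2 fold changes were above 0 with a median of 0.40, and the median was -0.01 without oPrl replicate 2. The gene of the largest catalytic subunit, polr1a, had 41.8, 72.4 and 33.7 CPM in oPrl fish, against 29.96, 30.6 and 28.0 CPM in vehicle fish. All 3 oPrl values of polr1a lay above the vehicle values, and its log2 fold change was 0.74 (SE 0.28, adjusted p = 0.184 by edgeR). The gene of the second-largest subunit, polr1b, had 19.1, 36.5 and 14.7 CPM in oPrl fish, against 16.0, 13.8 and 17.8 CPM in vehicle fish, and these overlapped (log2 fold change 0.56, adjusted p = 0.391 by edgeR). At the other end, polr1e, which encodes a subunit that acts in initiation and elongation, had 11.3, 17.8 and 11.4 CPM in oPrl fish and 9.999, 11.7 and 14.6 CPM in vehicle fish, with a log2 fold change of 0.16 (adjusted p = 0.779 by edgeR) and of -0.09 without oPrl replicate 2.

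Box C/D snoRNPs place methyl groups on rRNA, and fibrillarin (fbl) is their methyltransferase. Fibrillarin transcripts stood at 122, 283 and 98.9 CPM in oPrl fish, against 96.7, 76.6 and 115 CPM in vehicle fish. The groups overlapped because oPrl replicate 3 lay within the vehicle range, and the log2 fold change of 0.81 (95% interval -0.11 to 1.73, adjusted p = 0.293 by edgeR) was 0.20 without oPrl replicate 2. The scaffold genes nop58 and nop56 gave 0.43 and -0.04, with nop56 at 193, 311 and 171 CPM in oPrl fish and 196, 211 and 289.7 CPM in vehicle fish. The sign of nop56 turned with the scaling of the libraries, to 0.12 when library totals alone were used.

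Box H/ACA snoRNPs convert uridines of rRNA to pseudouridine. Their 4 core genes had log2 fold changes of 0.54 (dkc1, the pseudouridine synthase), 0.77 (gar1), 0.71 (nhp2) and 0.55 (nop10), and the median of 0.63 was 0.20 without oPrl replicate 2. Levels of dkc1 were 159, 274 and 142 CPM in oPrl fish and 126, 109 and 159.8 CPM in vehicle fish. For gar1 they were 37.7, 82.2 and 33.4 CPM in oPrl fish and 25.7, 21.6 and 42.4 CPM in vehicle fish. In both genes oPrl replicate 2 lay far above the rest and vehicle replicate 3 above the other vehicle fish, so no H/ACA gene separated the treatments, and the smallest adjusted p of the 4 was 0.316 (dkc1, edgeR).

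The small-subunit processome is built stepwise on the rRNA precursor. The UtpA complex binds first and in yeast is tied to rRNA transcription: its members utp4, utp15 and nol11 had log2 fold changes of 0.64, 0.52 and 0.63, and the median of 0.63 was -0.01 without oPrl replicate 2. This dependence was plain in utp4, at 13.5, 37.2 and 11.9 CPM in oPrl fish and 13.5, 11.7 and 15.1 CPM in vehicle fish: oPrl replicate 2 was 2.93 times the mean of the other oPrl fish, which themselves lay near the vehicle values. Of the UtpB complex only utp6 matched the symbols, at 17.5, 34.5 and 13.4 CPM in oPrl fish and 12.2, 10.3 and 14.1 CPM in vehicle fish (log2 fold change 0.84, SE 0.36, adjusted p = 0.229 by edgeR).

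The Mpp10 complex joins the U3 snoRNA to the growing processome. Its 4 genes had a median log2 fold change of 0.66 (0.21 without oPrl replicate 2). Of them 2, imp3 and utp3, were higher in every oPrl fish than in any vehicle fish (16.3% of all genes were). Levels of imp3 were 23.5, 34.8 and 18.4 CPM in oPrl fish and 15.5, 15.1 and 17.5 CPM in vehicle fish (log2 fold change 0.67, 95% interval 0.09 to 1.26, adjusted p = 0.178 by edgeR). Its partner imp4 did not share that separation, at 17.2, 33.2 and 16.1 CPM in oPrl fish and 19.3, 16.5 and 28.2 CPM in vehicle fish, and the value of 0.05 on the log2 scale was -0.36 without oPrl replicate 2.

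Another 16 genes act on the small subunit outside these complexes and made up the largest role. Of them, 5 were higher in every oPrl fish than in any vehicle fish (16.3% of all genes were). Another 2 were lower in every oPrl fish (12.7% of all genes were). The median log2 fold change was 0.68, and 0.14 without oPrl replicate 2. The gene nol6 (ENSONIG00000015951), whose yeast counterpart is a structural component of the processome, had 26.7, 54.8 and 20.2 CPM in oPrl fish, against 15.7, 14.8 and 15.3 CPM in vehicle fish. All oPrl values of nol6 exceeded the narrow vehicle range; they averaged 33.9 ± 18.4 CPM in oPrl fish and 15.3 ± 0.472 CPM in vehicle fish (SD, n = 3 each). The difference of 1.15 on the log2 scale (SE 0.36) had the smallest adjusted p among members that were higher, 0.118 by edgeR, and 0.0274 by DESeq2. Without oPrl replicate 2 it was 0.62, with an interval of 0.18 to 1.06 that still lay above 0.

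Near nol6 in size was utp25, at 9.55, 22.6 and 8.40 CPM in oPrl fish and 7.25, 4.97 and 7.84 CPM in vehicle fish (log2 fold change 1.02, adjusted p = 0.211 by edgeR). The GTPase gene bms1 had 42.1, 81.4 and 32.7 CPM in oPrl fish and 28.2, 25.4 and 29.2 CPM in vehicle fish. Its log2 fold change was 0.92, and 0.44 (interval 0.03 to 0.85) without oPrl replicate 2. In that fit bms1, nol6 and npm1a were the 3 members with an interval wholly above 0. Another 4 members had an interval wholly below 0 (ddx21, nop16, rcl1 and rrp36). Of the 24440 genes tested in that fit, 4930 had an unadjusted p under 0.05 by edgeR, in either direction. bms1 was not named by the rule for reported genes and was added after its values were seen.

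The opposite was seen in rcl1, whose protein in yeast is the binding partner of Bms1. It had 37.6, 47.0 and 30.2 CPM in oPrl fish, against 52.5, 61.1 and 54.5 CPM in vehicle fish. All 3 oPrl values were below all 3 vehicle values, and the log2 fold change was -0.55 (SE 0.19, 95% interval -1.002 to -0.10, adjusted p = 0.153 by edgeR), or -0.73 without oPrl replicate 2. rrp36, a factor of early precursor cleavage in yeast that was also picked after its values were seen, likewise had all oPrl values below, at 62.8, 75.4 and 59.0 CPM in oPrl fish and 76.4, 79.8 and 95.9 CPM in vehicle fish (log2 fold change -0.35, adjusted p = 0.265 by edgeR).

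The widest spread between oPrl fish in this role was in tsr1, which encodes a GTPase-like factor of late small-subunit assembly, and in rrp12, known in yeast from nuclear export of both subunits. Levels of tsr1 were 18.0, 51.9 and 13.0 CPM in oPrl fish and 13.8, 11.99 and 24.6 CPM in vehicle fish. Levels of rrp12 were 33.4, 78.8 and 23.0 CPM in oPrl fish and 29.4, 23.3 and 31.9 CPM in vehicle fish. oPrl replicate 2 was 3.36 times the mean of the other oPrl fish for tsr1 and 2.79 times for rrp12, and without it their log2 fold changes of 0.72 and 0.68 were -0.12 and 0.00. By contrast tsr3, the enzyme gene of a late rRNA modification, varied little, at 9.23, 9.58 and 8.32 CPM in oPrl fish and 7.89, 7.10 and 10.1 CPM in vehicle fish.

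**Figure D3:**
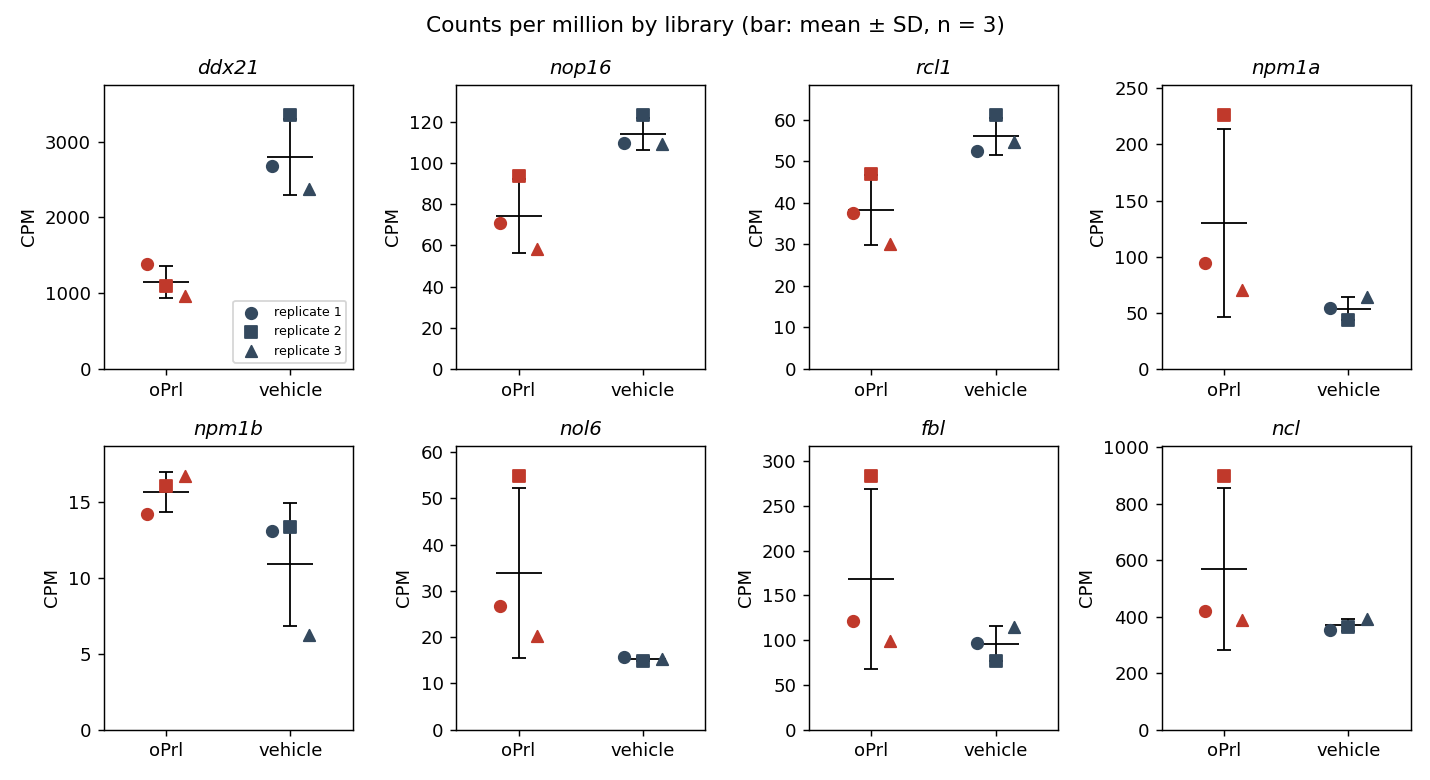
CPM in each fish (points) with the mean and SD (n = 3) for 8 members, oPrl left of vehicle in each panel. ddx21, nop16 and rcl1 have every oPrl fish below every vehicle fish, nol6, npm1a and npm1b have every oPrl fish above, and in fbl and ncl oPrl replicate 2 (283 and 897 CPM) stands apart from its group.

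On the large-subunit side, the PeBoW complex (pes, bop1 and wdr12) processes the rRNA precursor and, in mammalian cells, is needed for proliferation. Levels of pes were 48.6, 102 and 33.6 CPM in oPrl fish and 40.6, 30.6 and 42.5 CPM in vehicle fish. Those of bop1 were 69.5, 128 and 59.1 CPM in oPrl fish and 64.8, 61.8 and 83.5 CPM in vehicle fish. Both overlapped between treatments, as did wdr12 at 34.5, 55.3 and 28.4 CPM in oPrl fish and 22.1, 27.2 and 32.2 CPM in vehicle fish. The median log2 fold change of the 3 genes was 0.54, and 0.12 without oPrl replicate 2.

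The remaining 10 large-subunit genes had a median log2 fold change of 0.49 (0.02 without oPrl replicate 2) and held the member that fell. ddx21 (ENSONIG00000005499) encodes a nucleolar DEAD-box RNA helicase that in human cells binds rRNA and snoRNAs and also acts with RNA polymerases. It had 1387, 1093 and 966 CPM in oPrl fish, against 2679, 3346 and 2371 CPM in vehicle fish. The highest oPrl value was thus well below the lowest vehicle value, and oPrl replicate 2 did not stand apart, at 0.929 times the mean of the other oPrl fish. The log2 fold change was -1.28 (SE 0.19, 95% interval -1.74 to -0.83), and DESeq2 gave -1.32 with an adjusted p of 2.59e-07. The decrease lay between -1.44 and -1.16 whichever library was left out, but its edgeR adjusted p was 0.0606 without oPrl replicate 3 and 0.0555 without vehicle replicate 1, above the threshold.

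In share of the library, ddx21 alone took 0.154, 0.108 and 0.106% of counts in oPrl fish, against 0.252, 0.327 and 0.215% in vehicle fish. All 55 members together took 0.417, 0.558 and 0.327% in oPrl fish and 0.445, 0.517 and 0.444% in vehicle fish, which overlapped. Without ddx21 the other 54 took 0.263, 0.450 and 0.221% in oPrl fish and 0.193, 0.189 and 0.229% in vehicle fish. A summed level of this gene group is thus weighted by 1 gene that fell, and gives another picture than the typical member.

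nop16 (ENSONIG00000037371), a gene of large-subunit assembly in yeast, had 70.9, 93.7 and 58.3 CPM in oPrl fish, against 109.9, 123.1 and 109 CPM in vehicle fish. Each oPrl value lay below each vehicle value, with averages of 74.3 ± 17.9 CPM in oPrl fish and 114 ± 7.91 CPM in vehicle fish (SD, n = 3 each). The difference of -0.62 on the log2 scale (SE 0.20) had an adjusted p of 0.123 by edgeR and 0.0305 by DESeq2, and without oPrl replicate 2 it was -0.82 at an adjusted p of 0.0394 by edgeR. By comparison nop53, which in yeast brings the exosome to the large-subunit precursor, had 42.9, 85.7 and 34.9 CPM in oPrl fish and 36.6, 33.7 and 51.4 CPM in vehicle fish, with the usual peak in oPrl replicate 2.

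Over all 55 members, 13 had every oPrl fish above every vehicle fish (16.3% of all genes did) and 4 had every oPrl fish below (12.7% of all genes did). The 4 were ddx21, nop16, rcl1 and rrp36. The 13 came from RNA polymerase I (polr1a), the Mpp10 complex (imp3, utp3), the other small-subunit genes (nol6, utp25, bms1, utp20, nop14), the other large-subunit genes (nol8, nol9, ebna1bp2) and the chaperones (npm1a, npm1b). The 13 are 23.6% of the 55, above the share of all genes, and the 4 are 7.27%, below it. The members moved together from library to library, and neither share was tested. The count of members higher in every oPrl fish was 11 with relative log expression scaling or the scaling of DESeq2. It was 22 with library totals in place of TMM. It was 13 without oPrl replicate 1, 13 without oPrl replicate 2 (with 5 lower) and 25 without oPrl replicate 3. It was 11 without vehicle replicate 1 or 2, and 31 without vehicle replicate 3. The shares of all genes were not taken in these settings, and full separation is easier for any gene with fewer libraries. These counts therefore cannot be set against the 13 of the reported fit. Taken fish by fish, oPrl replicate 2 exceeded all vehicle fish for 48 members (34.5% of all genes), oPrl replicate 1 for 25 (30.5% of all genes) and oPrl replicate 3 for 13 (29.8% of all genes).

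Nucleophosmin is a nucleolar histone chaperone, and the annotation held npm1a (ENSONIG00000001860) and npm1b (ENSONIG00000001397). npm1a had the highest log2 fold change of the 55 members: its levels were 94.0, 226 and 70.0 CPM in oPrl fish, against 54.0, 43.2 and 64.0 CPM in vehicle fish. All oPrl values exceeded all vehicle values, and the log2 fold change was 1.27 (SE 0.43, 95% interval 0.28 to 2.27, adjusted p = 0.138 by edgeR and 0.0329 by DESeq2), or 0.61 (interval 0.08 to 1.14) without oPrl replicate 2. Its paralog npm1b had 14.2, 16.0 and 16.7 CPM in oPrl fish, against 13.1, 13.4 and 6.21 CPM in vehicle fish. The npm1b values of the oPrl fish lay close together and above all vehicle values, without a peak in oPrl replicate 2, and the log2 fold change was 0.52 (adjusted p = 0.379 by edgeR). It was 0.25 without vehicle replicate 3, the vehicle fish with the lowest npm1b level.

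The ratio of npm1a to npm1b was 6.62, 14.1 and 4.19 in oPrl fish and 4.13, 3.24 and 10.3 in vehicle fish, so the paralogs differed more between fish than between treatments. Reads that fit both paralogs were not counted by the authors, and reads of one may be lost or gained where the copies are alike. Nucleolin (ncl), an RNA-binding protein of the nucleolus, had 419.5, 897 and 388 CPM in oPrl fish, against 354, 365 and 393 CPM in vehicle fish. oPrl replicate 2 was 2.22 times the mean of the other oPrl fish, and the log2 fold change of 0.62 (adjusted p = 0.317 by edgeR) was 0.12 without it. nol7, also nucleolar, had 0.32, and -0.08 without that library.

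The 2 genes that matched by symbol only did not follow the others. nol4la had 1.01, 0.461 and 1.87 CPM in oPrl fish and 2.47, 1.93 and 1.68 CPM in vehicle fish, and nol4lb had 2.75, 3.10 and 3.17 CPM in oPrl fish and 3.85, 3.92 and 1.78 CPM in vehicle fish. Neither separated the treatments nor peaked in oPrl replicate 2, and the median log2 fold change of the members was 0.55 with or without this pair.

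**Figure D4:**
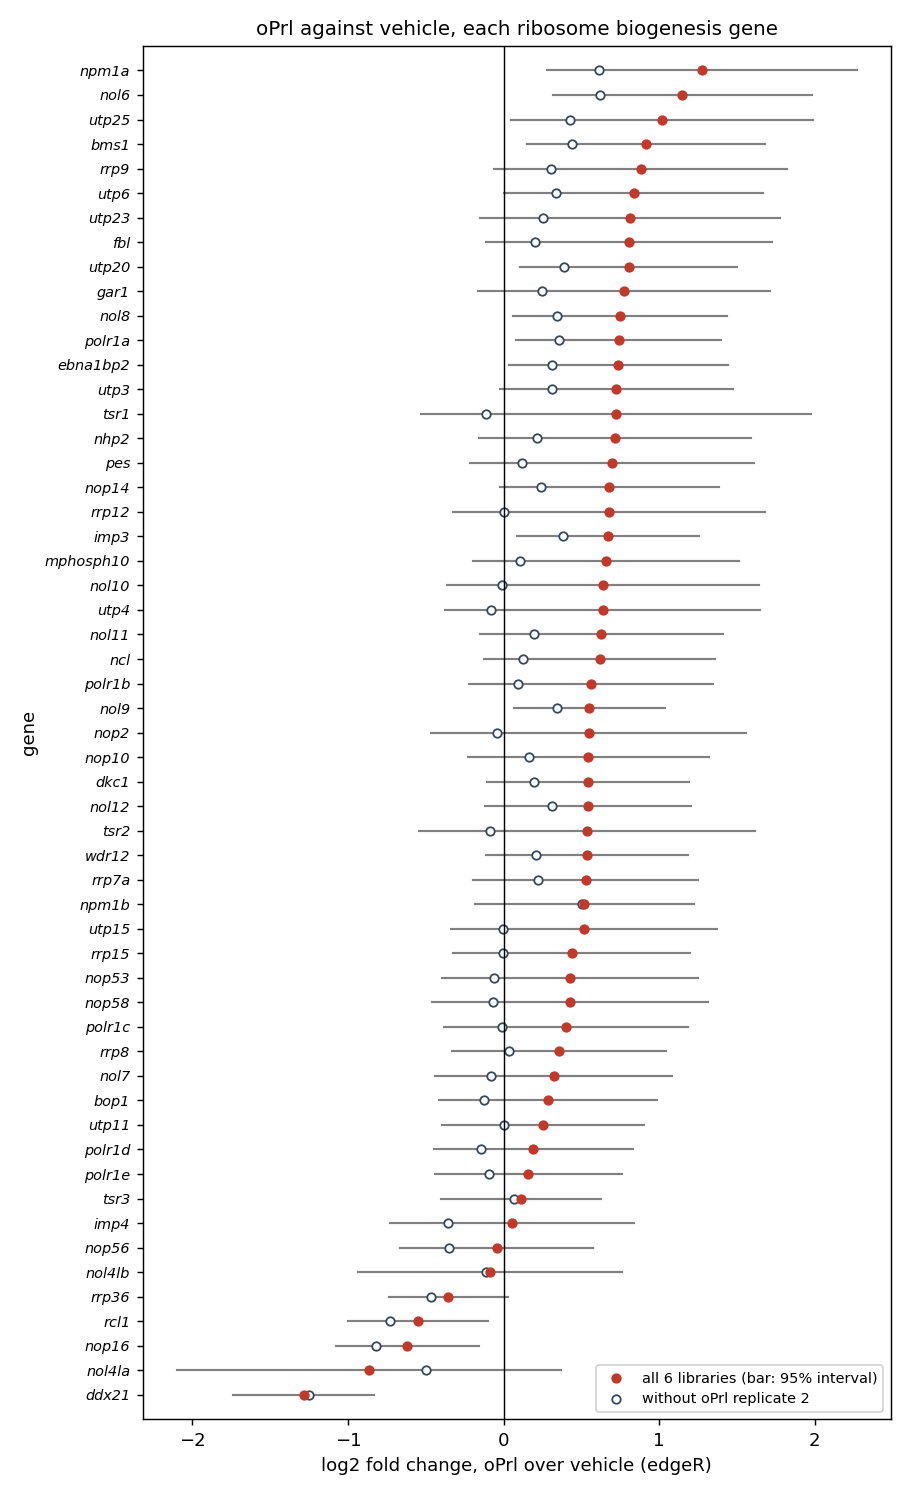
The log2 fold change (oPrl over vehicle) of each of the 55 members with its 95% interval from edgeR (filled), and the estimate without oPrl replicate 2 (open). Filled points run from -1.28 (ddx21) to 1.27 (npm1a). Most open points lie closer to 0, while those of nop16, rcl1, rrp36, nop56 and nol4lb lie further below 0. The point of imp4 moves from 0.05 (filled) to -0.36 (open).

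Genes of the same pathway whose symbols were not part of the rule were read from lists. Of 28 other small-subunit assembly genes, 26 had log2 fold changes above 0 and 2 below, with a median of 0.48 (-0.01 without oPrl replicate 2), and 26 were highest in oPrl replicate 2. Of 44 other large-subunit assembly genes, 37 were above 0 and 7 below, with a median of 0.45 (0.02 without oPrl replicate 2), and 40 were highest in oPrl replicate 2. The library pattern of the 55 members was therefore present in these genes too, with medians of 1.05 and 0.98 in oPrl replicate 2.

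No gene of either list rose at an adjusted p of 0.05 by edgeR; at an unadjusted p under 0.05 there were 3 of 28 and 9 of 44 higher (11.6% of all genes were), and DESeq2 gave 1 and 4 at its adjusted p (6.65% of all genes). tbl3, a component of the UtpB complex, had 34.1, 59.5 and 27.0 CPM in oPrl fish, against 20.4, 15.3 and 23.8 CPM in vehicle fish. All its oPrl values lay above the vehicle values, at a log2 fold change of 1.02 (SE 0.32, adjusted p = 0.122 by edgeR and 0.0381 by DESeq2), or 0.62 without oPrl replicate 2. By edgeR 4 genes of the lists fell (2.83% of all genes did): pno1 of the small-subunit list, and nsa2, rsl24d1 and gtpbp4 of the large-subunit list. pno1, which in yeast works with the rRNA dimethylase on the small-subunit precursor, had 333, 245 and 225 CPM in oPrl fish, against 617, 694 and 596 CPM in vehicle fish (log2 fold change -1.25, SE 0.18, adjusted p = 0.0114 by edgeR). nsa2 had 590.0, 498 and 532 CPM in oPrl fish, against 1184, 1208 and 1134 CPM in vehicle fish (log2 fold change -1.12, SE 0.13, adjusted p = 0.00559 by edgeR). rsl24d1, whose yeast counterpart is a placeholder for a ribosomal protein on the maturing large subunit, had 464, 277 and 295 CPM in oPrl fish, against 1154, 1161 and 1149 CPM in vehicle fish (log2 fold change -1.74, SE 0.22, adjusted p = 0.0072 by edgeR). Like ddx21, these genes separated the treatments in every fish and had no peak in oPrl replicate 2.

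gtpbp4, a nucleolar GTPase of the large subunit that was named after its values were seen, had a log2 fold change of -0.79 (adjusted p = 0.0294 by edgeR). It was the least stable of the 4: its adjusted p was 0.0576 without oPrl replicate 2 and up to 0.119 with another library left out. pno1 stood at 0.0578 without oPrl replicate 3 and 0.0563 without vehicle replicate 1, while nsa2 and rsl24d1 stayed under 0.05 whichever library was left out. In the 44 large-subunit genes the sum and the typical gene differed in direction: the summed level was 2975, 3651 and 2370 CPM in oPrl fish, below the 4509, 4529 and 4574 CPM of vehicle fish, although the median log2 fold change was above 0.

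The exosome trims rRNA precursors, and all 14 of its measured genes had log2 fold changes above 0, with a median of 0.58 (0.32 without oPrl replicate 2); none passed an adjusted p of 0.05 by edgeR, 6 had an unadjusted p under 0.05 and were higher (11.6% of all genes), and DESeq2 gave 3 at its adjusted p (6.65% of all genes). The 9 snoRNP assembly genes had a median of 0.52 (0.22 without oPrl replicate 2). At an adjusted p of 0.05 edgeR gave 0 (3.28% of all genes rose), and at an unadjusted p under 0.05 it gave 4 higher (11.6% of all genes). DESeq2 gave 2 higher at its adjusted p (6.65% of all genes), 1 of them past the stricter rule (6.01% of all genes in either direction). Among them ruvbl1, an ATPase that helps to load box C/D proteins, had 48.7, 85.7 and 43.0 CPM in oPrl fish, against 22.1, 21.7 and 31.9 CPM in vehicle fish. Its log2 fold change was 1.23 (SE 0.30, adjusted p = 0.0596 by edgeR and 0.00405 by DESeq2), and 0.86 without oPrl replicate 2. Its partner ruvbl2 gave 1.01 (adjusted p = 0.105 by edgeR and 0.0277 by DESeq2), and the exosome catalytic subunit dis3 and its helicase mtrex gave 0.86 and 0.99 (adjusted p = 0.0937 and 0.109 by edgeR). The 6 genes of RNA polymerase I initiation and nucleolar organisation had a median of 0.06, and neither edgeR nor DESeq2 gave a gene past an adjusted p of 0.05 (0 of 6, also 0 of 6 at an unadjusted p under 0.05 by edgeR). The smallest p of that list belonged to taf1b, of the selectivity factor, with a log2 fold change of 0.52 (adjusted p = 0.41 by edgeR), and the next to ubtfl, with -0.09 (adjusted p = 0.722 by edgeR).

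Ribosomal protein genes encode parts of the ribosome itself. Of 77 measured, 76 had log2 fold changes below 0, 67 were lower in every oPrl fish than in any vehicle fish (12.7% of all genes were), and 11 fell at an adjusted p of 0.05 by edgeR (2.83% of all genes did). With 1 library left out, 0 to 4 of them did (405 to 1401 of all genes passed in either direction, 1520 with all libraries). At an unadjusted p under 0.05, 59 were lower (10.1% of all genes), DESeq2 gave 43 at its adjusted p (6.68% of all genes), and neither tool gave a ribosomal protein gene past the stricter rule. Their median was -0.42, and -0.46 without oPrl replicate 2. The smallest p belonged to rpl36a and rps27a, at log2 fold changes of -0.74 and -0.64 (adjusted p = 0.0241 and 0.0284 by edgeR). Together the list summed to 115093 to 126400 CPM in oPrl fish, against 145232 to 173988 CPM in vehicle fish. The size of that gap depends on TMM, whose factors were 1.11, 0.99 and 1.09 in oPrl fish and 0.94, 0.98 and 0.91 in vehicle fish. A larger factor gives a lower CPM, and the list was not summed with library totals. oPrl replicate 2 did not stand apart, with a median deviation of -0.33 beside -0.47 and -0.43 in the other oPrl fish. With library totals in place of TMM the median of all genes was 0.19 instead of 0.02, and that of the 55 ribosome biogenesis genes was 0.71 instead of 0.55, so the distance between them was 0.52 with totals and 0.53 with TMM.

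Proliferation genes, read as a measure of dividing cells, were higher with oPrl in all 3 fish. Of 16 genes, 15 rose at an adjusted p of 0.05 by edgeR (3.28% of all genes did), 8 of them past the stricter rule (0.715% of all genes), and the median log2 fold change was 2.03 (2.01 without oPrl replicate 2). With 1 library left out all 16 still had log2 fold changes above 0, but 8 to 15 passed an adjusted p of 0.05 and 0 to 5 the stricter rule. Of all genes, 405 to 1401 passed that adjusted p in these fits and 0 to 215 the stricter rule, in either direction. With the replicate number as a block none of the 16 passed the stricter rule, where 30 of all genes did. The 16 genes summed to 1057 to 1297 CPM in oPrl fish, against 233 to 403 CPM in vehicle fish. The helicase gene mcm7 had 78.8, 77.9 and 66.6 CPM in oPrl fish, against 22.1, 22.05 and 26.5 CPM in vehicle fish (log2 fold change 1.66, SE 0.16, adjusted p = 0.00328 by edgeR), and mcm2 of the same complex had a log2 fold change of 1.93 (adjusted p = 0.00465 by edgeR). The oPrl fish were thus alike in proliferation genes and unlike in ribosome biogenesis genes. The vehicle fish kept 1 order in both lists, with proliferation medians of -0.05, -0.41 and 0.44 in replicates 1, 2 and 3.

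Myc transcription factors are known activators of ribosome biogenesis genes, and 14 genes of the Myc family and its partners were measured. mych had 39.0, 173 and 52.2 CPM in oPrl fish, against 227, 168 and 192 CPM in vehicle fish. oPrl replicate 2 was the only oPrl fish within the vehicle range. The log2 fold change of mych was -1.15 (SE 0.53, adjusted p = 0.258 by edgeR) with that library. Without it the value was -2.10 (adjusted p = 0.00762 by edgeR), in a fit where 1305 of 24440 genes passed an adjusted p of 0.05. In vehicle fish the median deviation of the ribosome biogenesis genes was -0.04, -0.20 and 0.26, against 1.18 in oPrl replicate 2. The part of mych or other Myc genes in the level of the ribosome biogenesis genes was not tested. mnta, which encodes a Max partner that acts as a repressor, fell to 25.3, 36.2 and 29.1 CPM in oPrl fish, against 114, 91.7 and 107 CPM in vehicle fish (log2 fold change -1.79, adjusted p = 0.00436 by edgeR). No other of the 14 genes passed an adjusted p of 0.05 by edgeR (2.83% of all genes fell and 3.28% rose). DESeq2 added 1 that was higher (6.65% of all genes were). myca was higher in every oPrl fish than in any vehicle fish without passing the test, at a log2 fold change of 0.71 (adjusted p = 0.157 by edgeR), and mycla and myclb gave -0.51 and -0.47. mycn overlapped, at 36.9, 87.3 and 53.9 CPM in oPrl fish and 85.5, 56.5 and 22.3 CPM in vehicle fish.

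Whether the peak in oPrl replicate 2 moved with depth or with another cell type was read from the same libraries. Its total count of 32959492 lay within the range of the other libraries. Its marker sums were 3618 CPM for ionocytes and 1651 CPM for leukocytes, both between those of the other oPrl fish. Red blood cell markers summed to 369.9 CPM, below the other oPrl fish, and epithelial markers to 9303 CPM, above the 6154 and 6215 CPM of the other oPrl fish and below all vehicle fish. The part of any of these in the level of the ribosome biogenesis genes was not tested.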

How the data were processed

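RNA-Seq libraries (NEBNext Ultra II) of gill filaments from 6 fish were analysed. The deposited values are raw counts per gene, which the authors made with bcl2fastq 2.20, Trimmomatic 0.36, STAR 2.5.2b and featureCounts, keeping uniquely assigned reads, on Ensembl's genome of another species, the Nile tilapia (build and strandedness not given in the sources used here). Reads of O. mossambicus that diverge from that genome may be lost, unequally between genes. A row with no gene ID (0.0901 to 0.135% of counts) was left out.

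Genes with at least 10 summed counts (24878 of 32591) were scaled by TMM and tested with edgeR 4.0.16 (quasi-likelihood, treatment only, Benjamini-Hochberg over all genes) in R 4.3.3. DESeq2 1.42.0 was the alternative tool. Intervals of 95% come from the fit's SE and its degrees of freedom. Deviations are log2(CPM + 0.5) minus the vehicle mean. The text names members past a threshold, per role the 2 smallest and the largest p, paralogs, the 3 highest and 3 lowest log2 fold changes and the 3 widest spreads. Of the other lists it names the 2 smallest p and the myc genes. The members and lists were chosen with earlier results of these data known. Lists were matched by symbol, with an optional a or b. No sequence was used here, so a planned promoter motif search was not run.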

Additional observations from a re-analysis of the deposited data

How the results depend on the processing

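With 3 fish per treatment and 1 library each, intervals cover the spread between these libraries only. The count of members past the stricter rule was 0 in the reported fit, and 1 with no filter on low counts, with DESeq2, and with DESeq2 without oPrl replicate 2 (ddx21 with no filter and in both DESeq2 fits); the last fit was chosen after seeing the data. At an adjusted p of 0.05 the count was 1, against 4 with DESeq2 and 0 to 2 with 1 library left out. It was 0 without oPrl replicate 3 or vehicle replicate 1. With DESeq2 without oPrl replicate 2 it was 5 (ddx21, nop16, rcl1 and rrp36 lower, nol6 higher). Of all genes, 1520 passed in the reported fit, 3315 with DESeq2 and 3201 of 24440 with DESeq2 without oPrl replicate 2. With 1 library left out, 405 to 1401 of all genes passed by edgeR. Members higher in every oPrl fish numbered 13 in the reported fit. They numbered 11 with relative log expression scaling or DESeq2, and 22 with library totals. With 1 library left out they numbered 11 to 31 (25 without oPrl replicate 3, 31 without vehicle replicate 3). The shares of all genes were not taken in these settings, so these counts cannot be set against the 13. The median log2 fold change of the 55 members was 0.55. It was 0.077 with DESeq2 without oPrl replicate 2, and 0.11 to 0.81 with 1 library left out. With library totals it was 0.71 where that of all genes was 0.19. Over all other lists the genes past the stricter rule numbered 11 (8 of proliferation, 1 of the Myc family and 2 of large-subunit assembly), against 20 with DESeq2, 0 with the replicate block and 0 to 5 with 1 library left out. Over all genes the same rule called 349, against 1496 with DESeq2 and 1488 with DESeq2 without oPrl replicate 2. By edgeR it called 477 with no filter on low counts and 30 with the block. It called 28, 215 and 5 without oPrl replicates 1, 2 and 3, and 0, 22 and 148 without vehicle replicates 1, 2 and 3. Without vehicle replicate 1, 4154 genes still had an unadjusted p under 0.05 by edgeR. The cause of these differences was not tested.

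With library totals nop56 turned to 0.12 and nol4lb to 0.074. With 1 library left out, log2 fold changes of 12 genes named by the rule changed sign in these ranges: bop1 -0.12 to 0.49, imp4 -0.36 to 0.30, nol4lb -0.36 to 0.067, nol7 -0.081 to 0.55, nop53 -0.060 to 0.66, nop56 -0.35 to 0.15, nop58 -0.068 to 0.71, polr1e -0.093 to 0.32, tsr1 -0.12 to 1.10, tsr3 -0.028 to 0.28, utp15 -0.0060 to 0.75 and utp4 -0.080 to 0.91. Of these 12 genes, 8 changed sign only without oPrl replicate 2. Over all 55 members, 32 were higher and 5 lower (ddx21, nol4la, nop16, rcl1 and rrp36) in every fit that left out 1 library. The other 18 changed sign in some such fit. The replicate numbers did not pair the fish (correlations of deviations between same-numbered libraries of -0.10, -0.064 and -0.0018); with the number as a replicate block the median was 0.50, 1 member passed an adjusted p of 0.05, and ddx21 had -1.29 at an adjusted p of 0.0284 by edgeR.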
